A study of Mus musculus with 12 samples.

Results

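The vascular endothelial growth factor (VEGF) ligands Vegfa, Vegfb, Vegfc and Pgf, the receptors Kdr and Flt1 and the co-receptor Nrp1 were followed across the cell classes of 6 mouse mammary tumours. They form a list of 7 genes, chosen by name but with earlier results of these data known. Counts of its members set beside shares of all genes are therefore descriptive. The Total libraries covered 19369 genes and the CD45 libraries covered 18574, and all 7 were measured in both. The tumours came from the 4T1 line, a mouse mammary carcinoma line that grows in immunocompetent BALB/c mice. Each grew in the mammary fat pad of female BALB/c mice of 9 to 11 weeks, from clone E, EM1, EM2, EM3 or M or from parental 4T1 cells. A clone derives from 1 cell of the line, no allele or agent was added in any group, and the labels do not give the epithelial or mesenchymal state of each clone. Per the labels, 1 tumour was taken per group and gave a Total library and a library of CD45-enriched leukocytes, so clones could not be compared by a test. Where 6 values follow each other they stand in the order of the tumours E, EM1, EM2, EM3, M and parental. Intervals are exact 95% Poisson intervals of the UMI counts and cover counting error only. UMIs, unique molecular identifiers, each mark 1 captured molecule, and CPM, counts per 1000000, is a gene's UMIs scaled to that total for the same cells.

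VEGF ligands are secreted dimers that bind receptor tyrosine kinases of blood and lymphatic vessels. Vegfa signals mainly through Kdr (VEGFR2), which drives endothelial growth and sprouting. Flt1 (VEGFR1) binds Vegfa, Vegfb and Pgf, with weak kinase activity and a soluble form that traps ligand. Vegfc acts chiefly on Flt4 of lymphatic vessels, and Nrp1 is a co-receptor that also binds class 3 semaphorins. In tumours, hypoxic cancer cells, macrophages and fibroblasts are known sources of Vegfa. In GRCm38, the mm10 build named by the submitters' processing notes, the 7 protein-coding genes lie on 5 chromosomes. Vegfa is on chromosome 17 (46016993 to 46032369), Vegfb on 19 (6982473 to 6987651) and Pgf on 12 (85166635 to 85177790). Vegfc (54077606 to 54187096) and Nrp1 (128358604 to 128503363) are on chromosome 8. Kdr (75932827 to 75978458) and Flt1 (147561604 to 147726011) are both on the minus strand of chromosome 5.

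The promoters of Kdr and Flt1 are shown as those of the 2 receptor kinases of the list. Both genes were highest in endothelial cells in 6 of 6 Total libraries, as were Pgf and Nrp1. Each line gives the 250 bases before the RefSeq start site in GRCm38.p6, minus strand, 5′ to 3′, at chr5:75978456-75978705 for Kdr and chr5:147726012-147726261 for Flt1. Capitals mark GGAA, the core letters bound by ETS factors, or its reverse complement TTCC.
Kdr: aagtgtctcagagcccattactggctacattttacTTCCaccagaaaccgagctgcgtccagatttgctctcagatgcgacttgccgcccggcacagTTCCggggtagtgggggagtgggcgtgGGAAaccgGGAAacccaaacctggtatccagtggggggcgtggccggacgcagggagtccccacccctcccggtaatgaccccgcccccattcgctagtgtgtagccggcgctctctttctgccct
Flt1: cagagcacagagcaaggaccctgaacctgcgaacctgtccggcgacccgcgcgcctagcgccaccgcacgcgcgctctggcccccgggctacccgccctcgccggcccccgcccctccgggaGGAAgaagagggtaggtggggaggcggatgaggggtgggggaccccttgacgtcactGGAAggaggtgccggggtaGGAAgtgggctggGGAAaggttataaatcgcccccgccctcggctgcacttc
Both windows held 4 GGAA letters on either strand, and 33.4% of the 32851 RefSeq windows of this length held as many, while 93.4% held at least 1. The Nrp1 window also held 4, the 2 Pgf windows 0 each, the 2 Vegfa windows 6 and 2, and those of Vegfb and Vegfc 1 each. ACGTG, the core of the hypoxia response element, was in neither printed window, once in 1 Vegfa window and in 16.6% of all windows. GGGCGG, the GC box, occurred 2 times in Kdr and 3 times in Flt1, and at least once in 32.7% of windows. All 3 motifs were searched on both strands and none contains another. These matches describe letters in a window and show no binding.

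The Total libraries held 38499899 to 122055131 UMIs in 6709 to 13467 cells, and the CD45 libraries 28083101 to 57116299 UMIs in 6791 to 11024 cells. Cell classes were those of the authors' annotation. Endothelial cells were few, 37 to 145 per tumour and 447 in all, against 777 to 5929 tumour cells and 1215 to 3951 macrophages in the Total libraries. Endothelial markers summed to values that lay between 8651 and 9425 CPM in endothelial cells and at 132 CPM or less in fibroblasts, macrophages and tumour cells, with 12 of 13 markers measured. Some libraries shared cell barcodes over their first 16 bases. The 14 pairs of libraries within the groups of E with EM3, of EM1 with EM2, of M and of the parental tumour did so for 12.2% to 19.1% of the smaller library, all other pairs for 0.686% to 1.91%. Tumour markers summed to 279 to 970 CPM in T and NK cells of the Total libraries and to 31.4 to 69.4 CPM in T cells of the CD45 libraries. Levels in T and NK cells are therefore printed beside low values. For Vegfc, Kdr and Flt1, which T cells of the CD45 libraries held at 2.78 CPM or less, they are a level to set low values against, whose source was not tested. For the other genes they are only a class to compare with, since T cells of the CD45 libraries held Vegfa at 61.1 to 147 CPM, Vegfb at 25.9 to 36.2, Nrp1 at 10.6 to 31.5 and Pgf at 0.517 to 10.3.

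Vegfa, the ligand that drives most vessel growth, was found at the highest levels in macrophages and fibroblasts, lower in tumour cells and lower again in granulocytes. Macrophages of the Total libraries had 1622, 1069.9, 1080.3, 1258, 881 and 949 CPM. Tumour cells had 699.6, 787, 630.3, 876, 556 and 640.1 CPM in the same order. The lowest macrophage value, in M, lay just above the highest tumour cell value, in EM3, so the groups did not overlap, and macrophages were higher in 6 of 6 tumours. Fibroblasts had 1236 (1155 to 1321), 968 (866 to 1078), 849, 1262, 1206 and 1144 CPM. Fibroblasts were the class with the highest Vegfa CPM in 3 tumours and macrophages in the other 3, with overlapping intervals in EM1 and EM3. Macrophage markers summed to 767 to 8172 CPM in fibroblasts, against 34475 to 49862 CPM in macrophages, and their part in fibroblast Vegfa was not tested.

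Granulocytes, mostly neutrophils in such tumours, had 374, 211 (175 to 254), 244, 338, 265 and 279 CPM of Vegfa. All 6 values lay below those of tumour cells. T and NK cells of the same libraries had 121 to 233 CPM. Granulocyte levels exceeded the T and NK level in each of the 6 tumours, with the closest values in the parental tumour, at 279 (245 to 317) and 233 (205 to 264) CPM, whose intervals overlap. Macrophage markers summed to 1600 to 4971 CPM in granulocytes and to 636 to 3434 CPM in T and NK cells. Their part in granulocyte Vegfa was not tested. After each cell was thinned to 1000 UMIs, a Vegfa UMI was found in 13.1% to 26.6% of granulocytes, 37.4% to 50% of tumour cells, 50.4% to 68.2% of macrophages and 10.8% to 19.4% of T and NK cells of the Total libraries. Unthinned, those shares were 15.0% to 38.0%, 80.1% to 95.4%, 81.5% to 89.0% and 13.5% to 31.8%. Shallower cells were left out of the thinned shares, which kept 160 to 3072 granulocytes and 762 to 5902 tumour cells per library.

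Endothelial cells, the target of Vegfa, had little of it themselves. Their levels were 245 (191 to 308), 41.3 (18.9 to 78.3, from 9 UMIs), 132, 178, 174 and 178 CPM. These levels overlapped those of T and NK cells, and few cells carried them: without the cell with the most UMIs the EM1 value was 24.2 and the EM3 value 111 CPM. Dendritic cells had 156 to 416 CPM and B cells 66.9 to 219 CPM in the Total libraries.

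In the CD45 libraries Vegfa was highest in macrophages in 6 of 6 tumours. Macrophages had 1694, 1221, 1252, 1592, 1062 and 1205 CPM. Granulocytes had 369, 186, 209, 321, 216 and 284 CPM in the same order. Other myeloid cells ranged from 463 CPM in M to 1153 in E, and dendritic cells from 285 in M to 727 in EM3. NK cells, a small class of 38 to 132 cells, had 484 to 738 CPM of Vegfa, while T cells had only 61.1 to 147. In those NK cells macrophage markers summed to 1384 to 3888 CPM, with up to 1 of 8 at 0 in a tumour, and granulocyte markers to 1201 to 4855, with up to 2 of 8 at 0. Markers of mast cells summed to 360 to 723 CPM there, with up to 4 of 5 at 0, and the part of these cells in the NK level was not tested.

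**Figure D1:**
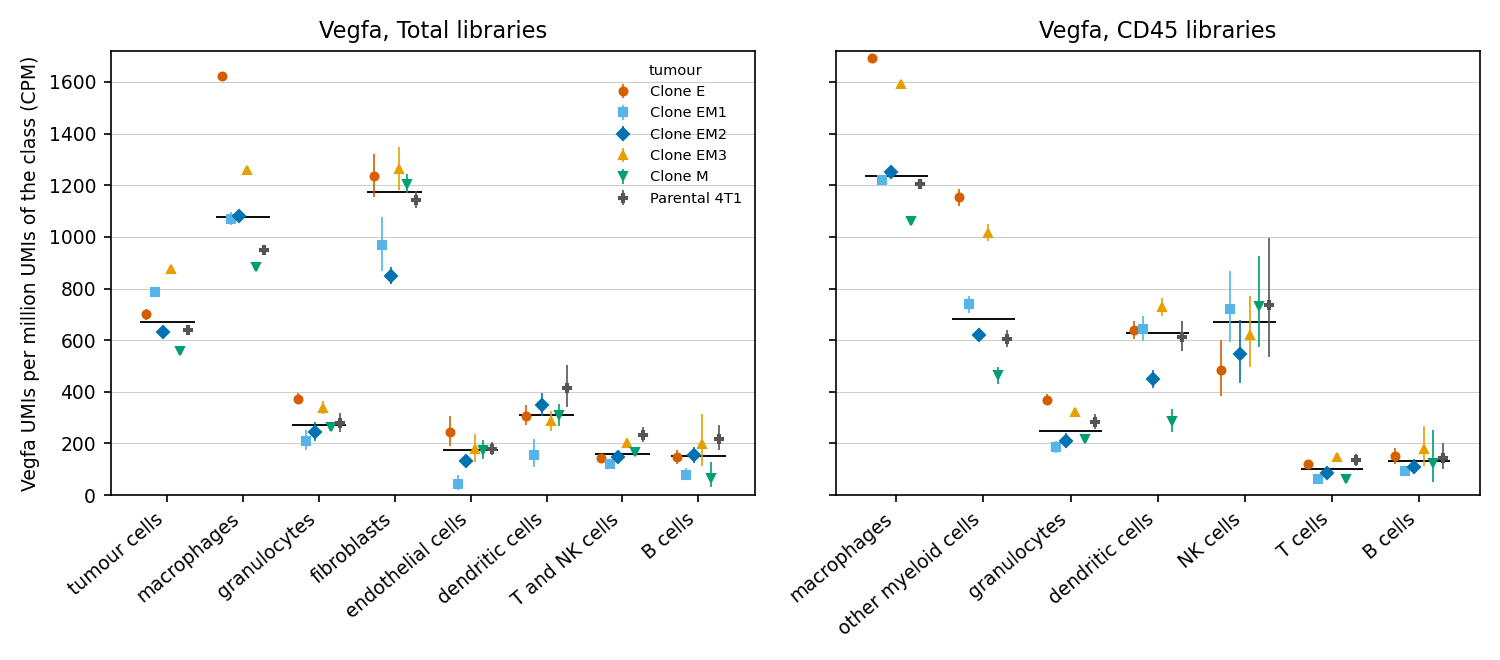
Vegfa level in CPM by annotated class, Total libraries on the left and CD45 libraries on the right. Each symbol is 1 tumour with its exact 95% Poisson interval, and the black line is the median of the 6 tumours. Macrophages lie between 881 and 1622 CPM in the Total libraries and granulocytes between 211 and 374.

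The classes were compared over the 6 tumours with the tumour as a block, by edgeR's quasi-likelihood test with Benjamini-Hochberg adjustment over all genes, on the scale of library totals. Samples of a class were summed cells of 1 tumour. With the tumour as a block, the spread is how class differences vary between tumours of different clones, estimated over all sums in the fit. The authors' classes rest on expression in the same cells. Which genes named them is not given in the sources used here. Most genes were called in these comparisons, so a call alone says little about the 7. Between macrophages and tumour cells, 6 of 7 genes passed an adjusted p of 0.05, where 79.7% of the 11486 genes tested did. Vegfa was higher in macrophages by 0.69 on the log2 scale (SE 0.179, adjusted p 0.000564), from 1143 ± 268 CPM (SD, n = 6) against 698 ± 116. Of all genes called in this comparison, 35.5% were higher in macrophages, a split that became 49.5% under TMM scaling, around medians over all genes of -0.39 and -0.02. Vegfa stayed higher in macrophages under every scaling tried.

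Between granulocytes and tumour cells 6 of 7 genes were called, as were 85.4% of all genes, of which 26.5% were higher in granulocytes (51.2% with DESeq2 size factors). The 6 include Vegfc, Kdr and Nrp1, which had 128, 32 and 130 UMIs in all Total granulocytes, so this count is not read. The medians over all genes were -0.93 on library totals and -0.03 with those size factors. Vegfa was lower in granulocytes by a log2 difference of -1.32 (SE 0.184, adjusted p 1.14e-08), in 6 of 6 tumours, beside that median of -0.93. Its direction and call held in all 13 alternatives run. Between macrophages and granulocytes all 7 genes were called in the Total libraries, against 71.9% of all genes, with 64.2% of calls higher in macrophages (40.4% with DESeq2 size factors). The medians over all genes were 0.31 and -0.19. The calls of Vegfc, Pgf, Kdr and Nrp1 rest on 128, 98, 32 and 130 UMIs in all Total granulocytes, so the count of 7 is not read. In the CD45 libraries 84.0% of 10355 genes were called, with 77.2% of calls higher in macrophages (51.1% under TMM). The medians over all genes of the CD45 libraries were 0.91 and 0.03. There 4 of the 7 passed the filter on low counts, and Vegfa was called. The other 3, Vegfb, Pgf and Nrp1, were low in granulocytes and high in macrophages, so they are given there by their levels, without a test. Vegfa was higher in macrophages than in granulocytes by 2.01 (SE 0.188) in the Total and 2.35 (SE 0.161) in the CD45 libraries, in 6 of 6 tumours each, from libraries of the same tumours.

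The Vegfa UMIs of a Total library came mostly from tumour cells and macrophages, and which of them led depended on the weighting. Tumour cells held 8.85% (8.57 to 9.12, exact binomial interval) of all Vegfa UMIs in E, and in the order given above 72.9%, 55.2%, 33.2%, 53.4% and 68.3% in the other tumours. Macrophages held 82.4%, 24.1%, 37.8%, 62.6%, 35.9% and 23.5%. The library of E had the smallest share of tumour cells, 7.18% of its cells, and the largest share of Vegfa UMIs in macrophages, which were 35.5% of its cells. Fibroblasts were 0.788% to 2.45% of cells and held 1.13% to 5.89% of Vegfa UMIs. Granulocytes were 5.73% to 29.5% of cells and held 0.294% to 3.13% of Vegfa UMIs. Cells with more UMIs weigh more in these shares. When every class was weighted by its number of cells, the median granulocyte share over the tumours was 5.04% in place of 0.651%. The leading class turned in EM2, where macrophages held 57.6% and tumour cells 30.6% so weighted, and in M, at 39.7% and 35.6%. Macrophages still led in E (70.6%) and EM3 (66.1%), and tumour cells in EM1 (54.1%) and the parental tumour (51.4%). The shares describe cells recovered after digestion, and fewer cells of a class and less RNA per cell are not told apart in a share of UMIs.

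**Figure D2:**
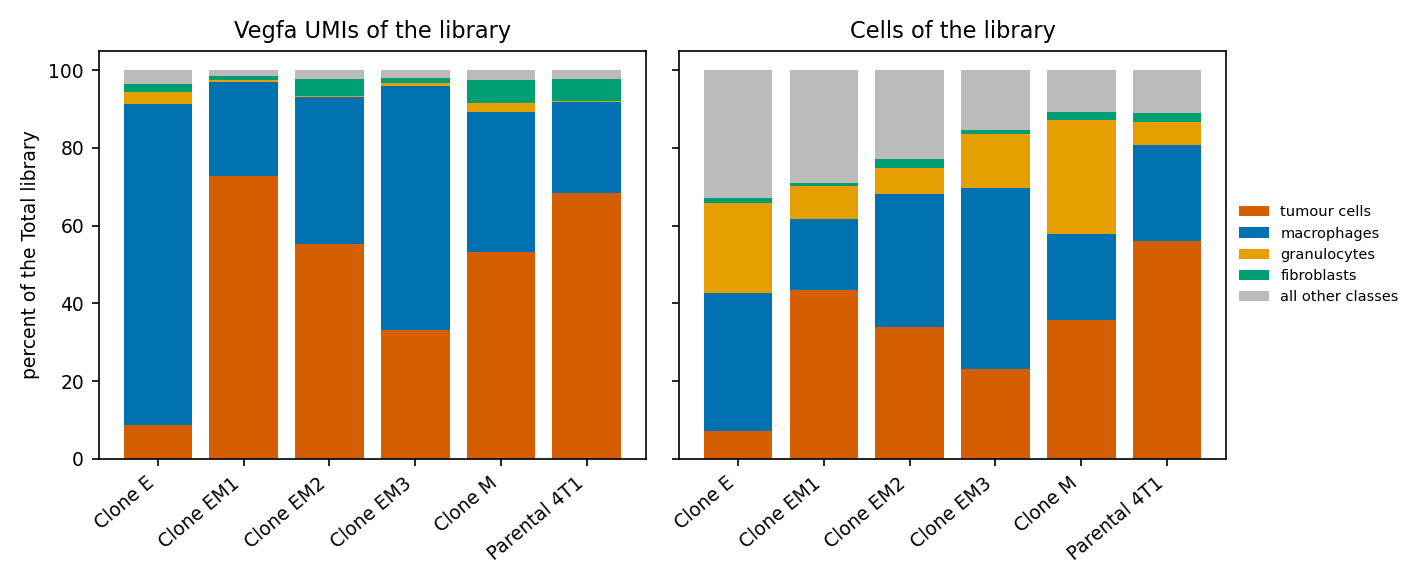
Percent of the Vegfa UMIs (left) and percent of the cells (right) of each Total library that lie in each class. Bars are single tumours and sum to 100%. Tumour cells hold from 8.85% of Vegfa UMIs in E to 72.9% in EM1.

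The order of the tumours by Vegfa was alike in both libraries of the same tumours. For macrophages, r of log2(CPM + 10) between Total and CD45 was 0.95 (exact permutation p = 0.00139, adjusted over 5 relations 0.00347) and rho was 1 (exact p = 0.00278, adjusted 0.00694) over 6 tumours. Without E and M, the tumours farthest from the median, r was 0.90. For granulocytes r was 0.97 with the same p-values, rho was 1, and r was 0.91 without E and EM1. This call was lost without EM1 alone (r 0.953, adjusted exact p = 0.0625, 5 tumours). Here 0.00139 is the smallest p that 6 pairs allow. E was highest and EM3 next in both classes and both libraries. Both libraries of a pair were made from the same tumour. The relation of tumour cell Vegfa did not pass the test with that of macrophages (r 0.52, exact p = 0.290, adjusted 0.363; rho 0.60, exact p = 0.242, adjusted 0.372) or with that of granulocytes (r 0.21, exact p = 0.679, adjusted 0.679; rho 0.26, exact p = 0.658, adjusted 0.658). In the CD45 libraries r between macrophages and granulocytes was 0.81 (exact p = 0.0653, adjusted 0.109; rho 0.54, exact p = 0.297, adjusted 0.372), and it was -0.04 without E and EM3, so it rested on those 2 tumours. E and EM3 are also the tumours whose libraries share barcodes with each other, and a value within such a group has only 2 tumours.

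**Figure D3:**
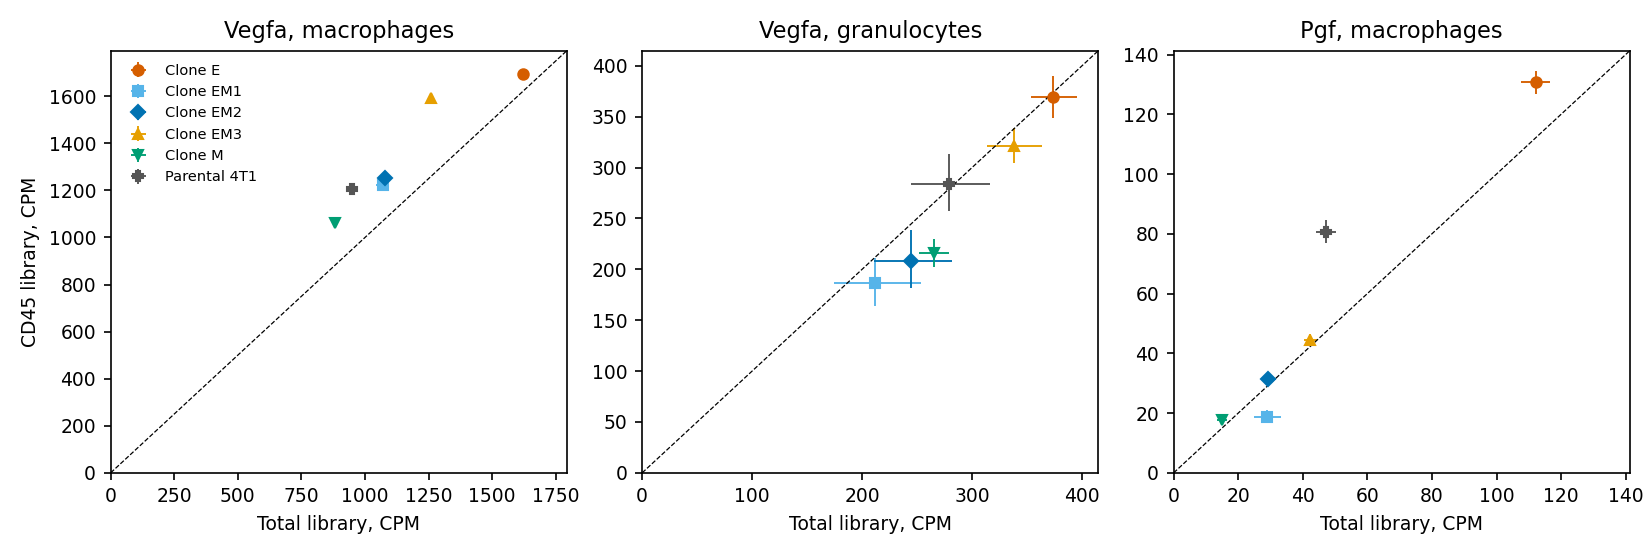
CPM in the Total library (x axis) against CPM in the CD45 library (y axis) of the same tumour, for Vegfa in macrophages and in granulocytes and for Pgf in macrophages. Each symbol is 1 tumour with exact 95% Poisson intervals and the dashed line marks equal values. For Vegfa in macrophages all 6 tumours lie above the line, from 1062 to 1694 CPM in the CD45 libraries.

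Macrophages of both libraries differed in 4 of 7 genes, against 40.6% of 12215 genes, with 88.5% of calls higher in Total (46.5% under TMM). The 4 include Vegfc, whose call is set aside below. Vegfa was lower in Total by a log2 difference of -0.24 (SE 0.0404, adjusted p 0.00113), in 6 of 6 tumours, and Nrp1 was higher by 0.23 (SE 0.0444, adjusted p 0.0022), in 6 of 6. The Nrp1 call was lost in 4 of the alternatives run, among them TMM (0.10, adjusted p 0.0927). Vegfc was called from 30 to 80 UMIs per Total library and 4 to 13 per CD45 library, so it passed the filter through the Total libraries and its difference is not read. Flt1 was higher in Total by 1.38 (SE 0.288). Both stood in Total at levels that T and NK cells of the Total libraries also reached, at 3.41 to 22.3 CPM of Vegfc and 10.9 to 39.6 of Flt1, against at most 2.78 and 1.44 in T cells of the CD45 libraries. Without the block only the Vegfc call remained, so no call that is read here did, and Vegfa had an adjusted p of 0.487.

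Vegfb, which binds Flt1 and is linked to fatty acid transport, was highest in tumour cells in 6 of 6 Total libraries, with an interval in E that overlapped that of B cells, at 54.9 CPM. Tumour cells had 75.6 (68.3 to 83.4), 98.0, 103, 97.8, 134 and 134 CPM. Macrophages had 37.7, 69.7, 77.8, 68.4, 93.8 and 97.9 CPM in that order. E was lowest and M and the parental tumour were highest in both classes, and the ranges of both classes overlapped. Macrophages were lower than tumour cells in 6 of 6 tumours, by a log2 difference of -0.55 (SE 0.139, adjusted p 0.000445). The call was lost under TMM (-0.18, adjusted p 0.201), with DESeq2 size factors (-0.16, adjusted p 0.247) and in DESeq2 (-0.16, adjusted p 0.192). Granulocytes had 11.7 to 35.0 CPM of Vegfb, endothelial cells 15.8 to 46.0 and fibroblasts 29.3 to 57.0, beside 32.1 to 58.5 in T and NK cells. In the CD45 libraries macrophages had 42.0 to 95.2 CPM and granulocytes 5.18 to 11.9, without overlap. Other myeloid cells led there in 5 of 6 tumours, at 75.6 to 128 CPM over all 6, and B cells in EM3, at 85.1, with intervals apart from the next class only in EM1, EM2 and the parental tumour.

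Vegfc, the lymphatic growth factor, was found in tumour cells, fibroblasts and endothelial cells and was low in leukocytes. Tumour cells had 43.4, 122 (118 to 126), 67.8, 30.3, 68.6 and 32.8 CPM. EM1 stood highest, and EM3 and the parental tumour lowest. Fibroblasts had 44.4 (30.2 to 63.0), 99.7 (69.1 to 139), 75.0, 68.7, 95.2 and 65.9 CPM. Fibroblasts led in 4 tumours, tumour cells in EM1 and endothelial cells in E, and the interval of the leading class was apart from that of the next class only in M and the parental tumour. Endothelial cells had 18.3 to 55.9 CPM from 4 to 46 UMIs per tumour. Macrophages of the Total libraries had 1.07 to 4.57 CPM and granulocytes 4.05 to 22.1, beside 3.41 to 22.3 in T and NK cells. In the CD45 libraries macrophages had 0.169 to 0.588 CPM and granulocytes 0 to 0.700, and the source of the higher values in Total leukocytes was not tested. Total macrophages and granulocytes lay below tumour cells in 6 of 6 tumours without overlap, and no fold is given against such low levels.

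Pgf, placental growth factor, a ligand of Flt1, was highest in endothelial cells in 6 of 6 tumours and varied more between tumours than Vegfa. Endothelial cells had 313 (252 to 383), 1192 (1051 to 1346), 470.4, 181 (133 to 242), 451 and 363 CPM. EM1 stood apart, with 260 UMIs in 22 of its 48 endothelial cells, and it had 1061 CPM of Pgf without the cell that held most of them. EM3 was lowest, with an interval that overlapped that of its fibroblasts, and had 128 without its leading cell. A Pgf UMI was found in 27.9% to 50% of endothelial cells and, after thinning to 1000 UMIs, in 17.2% to 41.0% of the 33 to 128 cells kept, beside 0.458% to 1.00% of T and NK cells. Fibroblasts had 155, 144, 67.9, 140.1, 106 and 76.5 CPM in the same order. The EM3 value fell to 51.1 CPM without 1 cell that held 64 UMIs.

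Macrophages also held Pgf, at levels that differed between the tumours. In the Total libraries they had 112, 28.8, 29.3, 42.4, 14.9 and 47.1 CPM. In the CD45 libraries they had 131, 18.8, 31.4, 44.5, 17.6 and 80.7 CPM. E was highest and M lowest in both libraries. Among classes of the CD45 libraries macrophages led only in EM2 and EM3, with intervals that overlapped those of dendritic cells. Dendritic cells led in EM1, at 31.8 CPM, and in the parental tumour, at 172 (142 to 205). The class that the authors named T/myeloid hybrids led in E, at 234 (194 to 280), and in M, at 52.2 CPM from 7 UMIs. That class held 23 to 86 cells per tumour after doublets were left out, and 78 of its 224 cells were kept in E. Tumour cells had 4.33 to 34.5 CPM, highest in EM1, and T and NK cells 2.97 to 10.4. Macrophages exceeded tumour cells in 5 of 6 tumours, by a log2 difference of 1.84 (SE 0.336, adjusted p 3.43e-06), with EM1 as the exception. They exceeded granulocytes in 6 of 6 tumours, which had 2.76 to 15.0 CPM in the Total libraries, from 98 UMIs in all, and 1.83 to 16.1 in the CD45 libraries. Between granulocytes and tumour cells Pgf was not called, at -0.68 (SE 0.456, adjusted p 0.158). It was called lower in granulocytes without E (-1.13, adjusted p 0.0282), and the direction turned, uncalled, with DESeq2 size factors (0.22) and in DESeq2 (0.19).

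**Figure D4:**
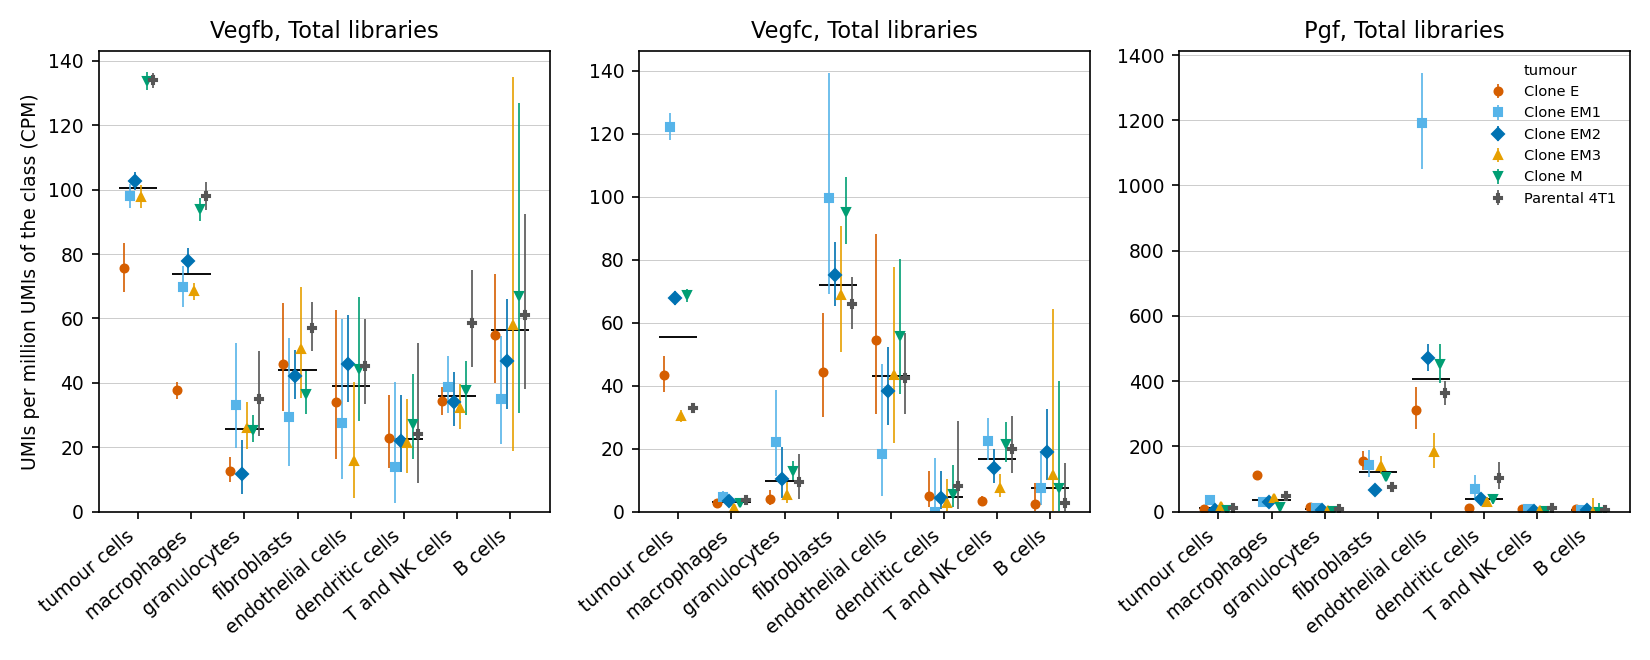
Vegfb, Vegfc and Pgf levels in CPM by class in the Total libraries, each panel with its own axis. Each symbol is 1 tumour with its exact 95% Poisson interval, and the black line is the median of the tumours. Vegfb is highest in tumour cells, at 75.6 to 134 CPM, and Pgf in endothelial cells, at 181 to 1192.

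The receptors Kdr and Flt1 were highest in endothelial cells in 6 of 6 tumours. Because the authors named this class from the same cells, these levels are described without a test. Kdr stood at 279 (222 to 346), 321 (250.1 to 405), 283, 304, 341 and 312 CPM. The highest and lowest tumour differed by 0.28 on the log2(CPM + 10) scale, with overlapping intervals. Flt1 stood at 669 (579 to 770), 811, 849.8, 856, 636 (569.6 to 709) and 779.5 CPM. M and E were lowest, with overlapping intervals, and the range was 0.42 on the same scale. Of the 447 endothelial cells, 288 (64.4%) had a UMI of Kdr, 348 (77.9%) of Flt1, 265 of both and 76 of neither. The median depth of these cells ranged from 3718 to 8058.5 UMIs, so a cell without a UMI is not shown to lack the receptor.

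Outside endothelial cells Kdr was low. Tumour cells had 0.206 to 1.15 CPM, near the T and NK level of 0.485 to 2.83, while macrophages had 2.24 to 11.9 CPM in the Total and 2.20 to 9.45 CPM in the CD45 libraries. T cells of the CD45 libraries had 0 to 0.287. M was highest and EM3 lowest among macrophages of both libraries. Macrophages exceeded tumour cells in Kdr in 6 of 6 tumours and granulocytes in 5 of 6. The sizes of these differences are not given, since tumour cells held 105 UMIs of Kdr and granulocytes 32 in all. Against granulocytes the adjusted p was 0.0134. This call was lost with DESeq2 size factors (adjusted p 0.103), in DESeq2 (adjusted p 0.189), without cells holding a UMI of another class's leading markers (adjusted p 0.0589) and without M (adjusted p 0.178). Endothelial markers summed to 44.0 to 93.6 CPM in macrophages, below the 143 to 220.4 CPM of T and NK cells, and their part in macrophage Kdr was not tested. Fibroblasts had 2.37 to 5.87 CPM of Kdr in 5 tumours and 44.4 (30.2 to 63.0) in E, from 31 UMIs, of which 12 lay in 1 cell.

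Flt1 was also present in tumour cells and fibroblasts. Tumour cells had 126, 121, 140.5, 87.2, 63.1 and 106 CPM. EM2 was highest and M lowest, with intervals far apart. T and NK cells of the same libraries had 10.9 to 39.6 CPM, and T cells of the CD45 libraries 0 to 1.44. A Flt1 UMI was found in 6.17% to 13.3% of tumour cells thinned to 1000 UMIs (47.2% to 77.8% unthinned) and in 1.03% to 3.82% of T and NK cells (2.12% to 5.65% unthinned). Fibroblasts had 65.9, 276, 70.2, 188, 108 and 44.9 CPM. Genes of the pericyte marker list, for cells that wrap vessels, summed in the same fibroblasts to 1359, 2115, 1222, 1674, 1896 and 789 CPM. EM1 was highest and the parental tumour lowest in both, and the part of such cells was not tested. Granulocytes had 17.2 to 56.01 CPM in the Total libraries but 0 to 2.52 in the CD45 libraries, from 29 UMIs in all. The source of the higher Total values was not tested. In the Total libraries both granulocytes and macrophages lay below tumour cells in 6 of 6 tumours without overlap. Macrophages lay below granulocytes there in 5 of 6 tumours, but above them in 4 of 6 in the CD45 libraries. Macrophages had 3.77 to 19.6 CPM of Flt1 in the Total libraries, at or below the T and NK level in 5 of 6 tumours, and 0.603 to 13.1 in the CD45 libraries. Only E exceeded 5 CPM there, at 13.1, from 459 UMIs. Counts per gene do not separate the soluble from the membrane form of Flt1.

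Nrp1, the co-receptor, was highest in endothelial cells in 6 of 6 Total libraries and was spread more widely than Kdr. Endothelial cells had 112 (77.2 to 157), 206 (150.5 to 276), 172, 142, 160.1 and 149 CPM. E was lowest and EM1 highest, with overlapping intervals. Of the 214 endothelial cells with an Nrp1 UMI, 210 also had a UMI of Kdr or Flt1. Fibroblasts had 50.1 to 99.7 CPM. Macrophages of the Total libraries had 29.9, 52.5, 53.6, 54.4, 75.5 and 45.4 CPM, and tumour cells had 42.1, 76.7, 44.6, 36.3, 32.4 and 23.7. E was lowest and M highest among macrophages of both libraries, while EM1 was highest among tumour cells. Macrophages and tumour cells overlapped, with a log2 difference of 0.33 (SE 0.170, adjusted p 0.0722) that passed under TMM (0.70, adjusted p 0.000142). It also passed without E (0.49, adjusted p 0.0113) and without EM1 (0.51, adjusted p 0.0126). Granulocytes had 8.10 to 16.5 CPM from 130 UMIs in all, beside 16.7 to 26.4 in T and NK cells. They lay below tumour cells in 6 of 6 tumours without overlap, and no fold is given against so low a level.

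**Figure D5:**
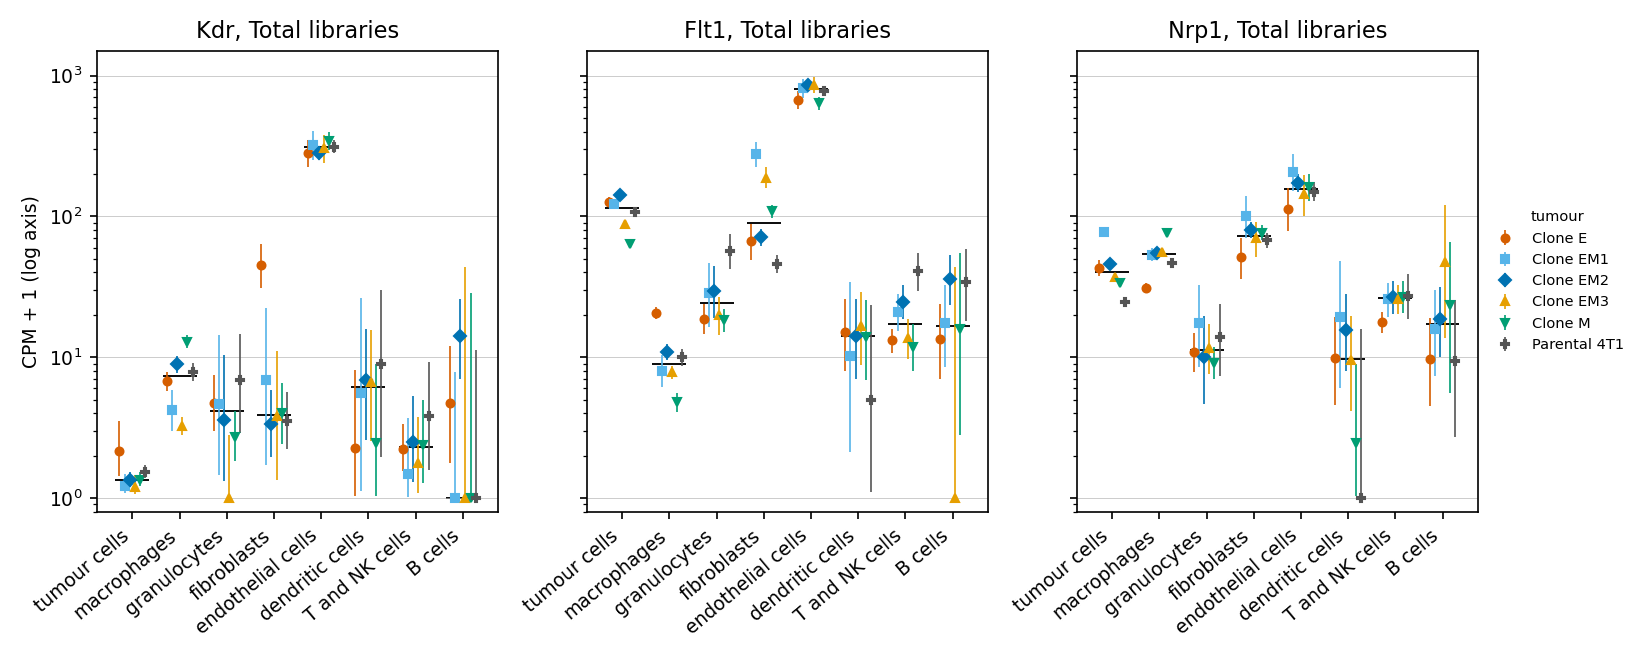
Kdr, Flt1 and Nrp1 levels as CPM + 1 on a log axis, by class in the Total libraries. Each symbol is 1 tumour with its exact 95% Poisson interval, and the black line is the median. Kdr lies at 279 to 341 CPM in endothelial cells and at 0.206 to 1.15 CPM in tumour cells.

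Endothelial cells were set against fibroblasts, the other stromal class, for the 5 genes other than Kdr and Flt1. Of these, 4 of 5 were called, against 50.6% of all genes, with 74.5% of calls higher in endothelial cells (46.0% under TMM). Pgf was higher in endothelial cells by 2.07 (SE 0.349) and Nrp1 by 1.11 (SE 0.195), in 6 of 6 tumours each, without overlap. Both are given without a p-value, since the authors named this class from the same cells by genes not given here. For that reason the counts of called genes of the list in this paragraph are not read. Vegfa was lower by a difference of -2.83 (SE 0.202), in 6 of 6 tumours without overlap. Vegfc was lower at -0.79 (SE 0.307, adjusted p 0.0288), in 5 of 6 tumours. That call was lost without the block (adjusted p 0.0988), with endothelial cells taken by their marker UMIs (-0.69, adjusted p 0.0537) and without EM1, EM2, EM3 or M (adjusted p 0.0953, 0.0916, 0.0582 and 0.0785). Vegfb, at -0.21 (SE 0.197, adjusted p 0.606), was called lower under TMM (-0.58, adjusted p 0.00983). Against tumour cells 4 of 5 were called too, against 59.8% of all genes, with 38.7% of calls higher in endothelial cells (56.2% with DESeq2 size factors). Pgf was higher by 5.31 (SE 0.384) and Nrp1 by 1.93 (SE 0.189), while Vegfa was lower at -2.18 (SE 0.198) and Vegfb at -1.51 (SE 0.181), in 6 of 6 tumours each. Vegfc did not pass the test, at -0.39 (SE 0.297, adjusted p 0.255), higher in 3 tumours and lower in 3.

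Between tumours of different clones the levels were set side by side without a test. A gene was counted where the highest and lowest tumour differed by at least 1 on the log2(CPM + 10) scale, among genes with 50 CPM or more in some tumour. In tumour cells 3 of 5 such genes of the list did so, against 25.1% of all genes. In macrophages 3 of 4 did in the Total libraries, against 10.9%, and 2 of 4 in the CD45 libraries, against 10.2%. In granulocytes 1 of 2 did in Total (22.7% of all genes) and none of 1 in CD45 (13.0%). In endothelial cells 3 of 6 did (30.9%) and in fibroblasts 3 of 6 (29.6%). Vegfa itself stayed within that limit in tumour cells (0.65), macrophages (0.87 in Total, 0.67 in CD45), granulocytes (0.79 and 0.95) and fibroblasts (0.57), and passed it in endothelial cells (2.31), where EM1 had 9 UMIs. In classes outside these counts its range was 1.58 in B cells and 1.36 in dendritic cells of Total, and 1.32 in dendritic cells, 1.30 in other myeloid cells and 1.14 in T cells of CD45. Pgf passed it in tumour cells (1.64), macrophages (2.29 in Total and 2.35 in CD45), endothelial cells (2.65) and fibroblasts (1.08), although tumour cells stayed under 50 CPM. Also under 50 CPM, its range was 1.14 in CD45 granulocytes. In dendritic cells, outside these counts, it was 2.5 in Total and 3.15 in CD45. Among values of 50 CPM or more, Flt1 passed it in fibroblasts (2.38), Total granulocytes (1.28, beside 0 to 2.52 CPM in CD45 granulocytes) and tumour cells (1.04). Vegfc passed it in tumour cells (1.71), endothelial cells (1.22) and fibroblasts (1.01), Nrp1 in tumour cells (1.36) and Total macrophages (1.10), and Vegfb in macrophages (1.18 in Total and 1.01 in CD45).

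Within tumours whose libraries share barcodes the same limit was applied to pairs, again without a test. EM3 against E passed it for Pgf in macrophages, at -1.22 in Total (2.99% of all genes passed) and -1.37 in CD45 (1.28%), and for Flt1 in fibroblasts, at 1.38 (7.60%). None of the 7 genes at 50 CPM or more passed it in tumour cells (10.5%), endothelial cells (9.31%) or granulocytes of Total (2.33%) or CD45 (0.788%). EM2 against EM1 passed it in endothelial cells for Vegfa, at 1.47, and Pgf, at -1.32 (5.29%), and in fibroblasts for Flt1, at -1.83 (4.33%). No such gene passed it in tumour cells (2.93%), macrophages of Total (0.416%) or CD45 (0.490%), or granulocytes of Total (2.51%) or CD45 (0.957%). M and the parental tumour have no partner tumour.

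Other genes of the pathway were taken from lists of known function. Of the other VEGF genes, Flt4, the receptor of Vegfc, had 95.1 to 142 CPM in endothelial cells and at most 1.38 in macrophages and 0.184 in tumour cells. Lymphatic endothelial markers summed to only 22.9 to 154 CPM in endothelial cells. Nrp2 had 202 to 345 CPM in endothelial cells and 215 to 553 in tumour cells, and Vegfd, another ligand of Flt4, was found in fibroblasts at 19.9 to 35.2 CPM and with 4 UMIs in all endothelial cells. Of the 4 listed symbols, 3 were measured, and the other, Figf, is an older symbol of Vegfd. Their calls against fibroblasts are not counted, since Vegfd had so few UMIs in endothelial cells and the authors named that class from the same cells.

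Of the angiopoietin, Notch and tip cell list, 13 of 15 genes were measured. In endothelial cells 12 of them reached 50 CPM in some tumour, and in fibroblasts 3 did. Calls against fibroblasts are not counted, since the authors named the class from the same cells. Esm1, a gene of sprouting tip cells that Vegfa is known to induce, ranged from 336 CPM in E to 1886 in M. Apln, a tip cell peptide, ranged from 214 in E to 659.5 in M, and Angpt2, a ligand of Tek that loosens vessels, from 85.0 in E to 442 in M. These 3 genes were chosen after their values were seen. Of the 12 genes of the list with 50 CPM or more in endothelial cells, 4 differed by at least 1 on the log2(CPM + 10) scale between the highest and lowest tumour, against 30.9% of all genes. The median range of the list was 0.76, beside 0.77 over all genes. Dll4, the Notch ligand of tip cells, ranged from 297 in the parental tumour to 733 in EM1. Plxnd1, a semaphorin receptor, ranged from 691 to 1320.2 CPM, with EM1 highest. Angpt1, at 1.93 to 8.62 CPM in endothelial cells, was lower there than in fibroblasts. The list was made with endothelial genes in mind, and Tie1 is also among the markers.

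Class 3 semaphorins, which compete with VEGF for Nrp1 and Nrp2, were measured for 7 of 7 genes and tested for 5. In tumour cells 2 of the 7 reached 50 CPM in some tumour, and in macrophages none did. Calls of the 5 between these classes are therefore not counted. Sema3f had 652 to 807 CPM in endothelial cells and 176 to 282 in tumour cells, and Sema3e 18.9 to 58.9 in tumour cells. Of the hypoxia list, 18 of 19 symbols were tested, and Ero1a and Ero1l in that list are symbols of the same gene. Between macrophages and tumour cells 5 were higher and 5 lower, so that 10 of 18 were called where 79.7% of all genes were, with a median of -0.03 beside -0.39 over all genes. Hif1a, the oxygen-regulated subunit of HIF-1, was higher in macrophages by 1.11 (SE 0.16), at 160 to 324 CPM, against 64.9 to 124 in tumour cells. Slc2a1, the glucose transporter GLUT1, ranged from 265 to 546 CPM in macrophages. Of the 11 genes of the list with 50 CPM or more in Total macrophages, 1 differed by at least 1 on the log2(CPM + 10) scale between the highest and lowest tumour, against 10.9% of all genes. Car9, a carbonic anhydrase induced by HIF-1, went the other way between classes, with 65.7 to 186 CPM in tumour cells and 7.30 to 19.2 in macrophages. In granulocytes 9 of the 18 were higher and 5 lower than in tumour cells, with a median of 0.28 beside -0.93 over all genes, of which 22.6% were higher and 62.8% lower. With DESeq2 size factors those shares of all genes were 38.6% and 36.8%, around a median of -0.03.

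Of the 9 angiogenesis inhibitors, 4 were higher and 3 lower in macrophages than in tumour cells, a share near the 79.7% of all genes called. Thbs1, thrombospondin 1, had 2666 CPM in EM1 to 6803 in E in macrophages. Pf4 had 153 CPM in E to 633 in the parental tumour in macrophages. Vash1, which endothelial cells are known to make in response to VEGF, had 177 to 316 CPM in endothelial cells and at most 10.0 in macrophages and 1.34 in tumour cells. In endothelial cells 8 of 9 inhibitors were higher than in tumour cells, with a median of 2.14 beside -0.21 over all genes, of which 59.8% were called and 23.1% were higher. In the same comparison 8 of 8 macrophage markers were higher (median 2.19), as were 6 of 7 pericyte markers (4.00) and 4 of 7 fibroblast markers (1.36). Within endothelial cells macrophage markers summed to 385 to 3575 CPM, with up to 1 of 8 at 0 in a tumour, fibroblast markers to 107 to 3686, with up to 3 of 7 at 0, and pericyte markers to 948 to 1999, with up to 4 of 7 at 0. Their part in the inhibitor counts and in the other endothelial values was not tested.

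Over 53 sums of a class in a tumour of the Total libraries, the genes whose log2(CPM + 10) was most like that of a member were found among 8945 genes. Sums of a tumour share a library and sums of a class share a cell type, so r describes likeness between classes and has no p. Vegfa was most like Lrp1 (r 0.92), Axl (0.91) and Itgb5 (0.86), and Vegfb like Slc27a1 (0.86), Hs2st1 (0.84) and Tex264 (0.82). Vegfc was most like Cald1 (0.92), Osmr (0.92) and Tpm1 (0.91). Pgf was most like Arhgap31 (0.92), Srgap1 (0.90) and Pnp (0.87). Kdr was most like Ccdc85a (0.97), Ptprb (0.97) and Hoxd9 (0.97), Flt1 like Tspan9 (0.94), Spry4 (0.94) and Gng11 (0.93), and Nrp1 like Fez2 (0.88), Sash1 (0.87) and Plk2 (0.85).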

How the data were processed

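Genes per cell were deposited as raw UMI counts for 12 libraries, with a second deposited table that holds, per the file headers, the authors' UMI and gene numbers, the mitochondrial percent and fraction of UMIs, and 2 annotation columns. Cell Ranger and the build mm10 are named in the submitters' processing notes, while the version, the gene annotation, the cell filters and the naming of classes are not given in the sources used here. Both a fixed-RNA kit and 3′ reagents are named in the labels, which do not settle which of them made these counts. The barcodes of each library had 1 end after their first 16 bases. Libraries in the groups that shared those bases had different ends.

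Doublets were called with Scrublet (scanpy 1.11.5; 2 simulated pairs per cell, 6% expected, 2000 variable genes, 30 components) at the median valley over libraries, 0.297, and 2135 of 115612 cells (1.85%) were left out. Raw counts were summed per tumour and class with at least 10 cells. CPM used all UMIs of a sum. Tests were edgeR 4.0.16 quasi-likelihood fits (R 4.3.3) after filterByExpr, scaled by library totals, with Benjamini-Hochberg adjustment over all genes at 0.05. DESeq2 1.42.0, TMM and the alternatives of the closing section were also run. A floor of 3 UMIs is the limit that a count of 0 allows. Ranks of tumours used a pseudocount of 10 CPM. Correlations had exact two-sided permutation tests. On simulated data for macrophages against tumour cells (13938 genes), 87% of 2-fold and 97% of 4-fold changes were recovered, with 8 false calls. The simulation planted 100 changes of each size, balanced in direction, among well-counted genes, with a fixed spread and no tumour effect. It does not show how many false calls arise where most genes differ, as in these data.

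The tumour was the block because both classes of a comparison came from the same animal's tumour, which is also the pairing of the Total and CD45 libraries. All 7 members were named. Of each further list the counts and the 3 genes with the highest level in a class were to be named, and the 3 most alike genes for each member; further list genes were chosen after their values were seen. The members and lists were chosen with earlier results of these data known. Positions came from GENCODE vM21 (GRCm38), and promoters from RefSeq, which matched all 7 members.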

Additional observations from a re-analysis of the deposited data

Results flagged for a closer look

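In 49 groups of 6 tumours, 8 had a highest tumour that lay further from the rest than Dixon's 95% limit allows. Lowest tumours were looked at too. The limit assumes normally distributed values, and the groups share the same 6 tumours, so the count of 8 is not set against chance. Pgf accounted for 2 of the 8. It had 1192 CPM in endothelial cells of EM1, with the next tumour at 470.4. In Total macrophages of E it had 112 CPM, with the next at 47.1. Kdr accounted for 3, at 44.4 CPM in fibroblasts of E from 31 UMIs, at 1.15 CPM in tumour cells of E from 6 UMIs, and at 2.10 CPM in CD45 granulocytes of the parental tumour from 3 UMIs. Flt1 accounted for 2, at 13.1 CPM in CD45 macrophages of E from 459 UMIs and at 56.01 CPM in Total granulocytes of the parental tumour from 48 UMIs. Vegfc stood apart in CD45 macrophages of the parental tumour at 0.588 CPM, from 13 UMIs. The cause of these values was not tested. Those of Pgf and of macrophage Flt1 rest on over 200 UMIs each, and the other 5 on 48 or fewer.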

How the results depend on the processing

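Over 539 values of single genes under the alternatives run, 504 kept their direction and side of the threshold, 20 lost and 12 gained a call, and 3 turned. The 539 include calls not read above, such as Vegfb, Pgf and Nrp1 of CD45 macrophages against granulocytes. The tally therefore describes all values run and not only the calls that are read. Those that turned were uncalled in both fits: Pgf in granulocytes against tumour cells, at 0.22 with DESeq2 size factors and 0.19 in DESeq2, and Vegfb in Total against CD45 macrophages, at -0.0021 in DESeq2. With no replicate block, macrophages of Total against CD45 had 1 member called in place of 4, and 1513 of all genes in place of 4964. The 1 left was Vegfc, whose call is not read, and the cause was not tested. No other count of called members moved by over 1.5 times. Leaving out 1 tumour left 6 to 7 of 7 members called for each of the 3 Total contrasts among macrophages, granulocytes and tumour cells. Of all genes 66.6% to 84.7% were called there. Endothelial cells kept 3 to 4 of 5 against fibroblasts (42.2% to 50.8% of all genes) and 4 of 5 against tumour cells (52.8% to 58.6%). Both libraries of macrophages kept 4 to 5 of 7 (30.8% to 37.7%), where Vegfc is among those counted. Counts of contrasts with granulocytes or endothelial cells are not read, as above. Vegfa of granulocytes in both libraries had r between 0.938 and 0.985 with 1 tumour left out, and its adjusted p rose to 0.0625 without EM1 (r 0.953), with 5 tumours left. Tumour cell and granulocyte Vegfa had r between -0.158 and 0.673, turning without EM3. Weighting by cells moved the granulocyte share of Vegfa from 0.651% to 5.04%; the cause was not tested. DESeq2 size factors moved the median of all genes for granulocytes against tumour cells from -0.93 to -0.03. The limits are 1 tumour per clone, 37 to 145 endothelial cells per tumour, and few UMIs of Kdr in tumour cells and granulocytes.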
